A study of Mus with 6 samples.

Results

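The Hox-cluster long non-coding RNAs described here are 7 RNAs chosen by name: Halr1, Hotairm1, Hoxaas2, Hoxaas3 and Evx1os of the HoxA cluster and its flanks, Hoxb5os of HoxB and Hotair of HoxC. They are 7 of 2282 names, mostly long non-coding RNAs (lncRNAs), in a table of RNAs from the right substantia nigra pars compacta, a part of the midbrain whose dopaminergic neurons are lost in Parkinson's disease. All mice overexpressed human α-synuclein with the A53T substitution, an inherited Parkinson's disease variant. One group of 3 samples received AVE0991, a non-peptide agonist of the Mas receptor, at 10 mg/kg, and the model group of 3 samples received 0.9% saline. Both were injected into the peritoneum daily for 30 days. The labels give neither the promoter of the transgene nor the age of the mice, and they do not say whether each sample is 1 mouse, so the p-values reflect the spread among these samples alone, which may be technical.

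Hox genes encode homeodomain transcription factors that pattern the body from head to tail. They lie in clusters whose order on the chromosome matches the order in which the genes are expressed along the body axis, and in the nervous system they are known mainly from the hindbrain and spinal cord. Many lncRNAs are transcribed from the same clusters, often from the strand opposite to a Hox gene, and several are known to act on nearby Hox genes or on the chromatin over them. Hotairm1, first studied in human myeloid cells, where retinoic acid induces it, is the lncRNA named in the title of the study, together with miR-223-3p and α-synuclein.

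In RefSeq's annotation (GRCm38.p6), which was used for names and neighbours, Halr1 lies on the Skap2 side of the HoxA cluster, outside the Hox genes proper. Hotairm1 lies on the same side of Hoxa2. Hoxaas2 overlaps Hoxa3, Hoxaas3 overlaps Hoxa3, Hoxa5 and Hoxa6, and Evx1os lies beyond Hoxa13 and overlaps Evx1. Hoxb5os overlaps Hoxb6 and Hoxb5, and Hotair lies between Hoxc12 and Hoxc11 without overlapping either. The sources used here do not give the strand setting of the counting, so where an RNA overlaps a gene their reads cannot be told apart.

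The deposited table of named RNAs holds group means and test statistics. Whole counts per library were recovered from them, which for each of the 7 RNAs had exactly 1 solution. The recovered libraries are called a, b and c within each group and could not be tied to the replicate numbers of the labels. Values are normalized counts, that is, counts divided by a library factor that ran from 0.9209 to 1.1787. The recovered counts summed to between 1605558 and 1820648 per AVE0991 library and to between 2061788 and 2178993 per model library. The samples' tables by identifier held 37036986 to 52029003 counts. None of the 14 genes listed as markers of dopaminergic neurons was among the names used here, so the tissue label could not be checked against them. AVE0991 library a stood apart from libraries b and c for most of the Hox-cluster RNAs, and results are given with and without it.

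Of the 7 Hox-cluster RNAs, 1 was lower with AVE0991 and 6 did not pass the test. Hotairm1 fell 3.53-fold. The test was edgeR's quasi-likelihood test over all 1867 names with enough counts, with Benjamini-Hochberg adjustment and a threshold of 0.05; all 7 RNAs were among the names tested. Across those names 15.9% passed in either direction, with 7.61% of all names tested higher and 8.3% lower with AVE0991, so 1 of 7 is near the background. The log2 fold change was below 0 for 5 of the 7 RNAs, with a median of -1.53, against 51.4% of all names tested and a median of -0.02.

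Hotairm1 had normalized counts of 34.3, 17.3 and 13.0 in a, b and c of the AVE0991 group, against 73.8, 87.7 and 74.9 in a, b and c of the model group. Every AVE0991 library lay below every model library, and groups that did not overlap in this direction were found for 22.5% of all names tested. The AVE0991 mean was 21.5 ± 11.2 and the model mean 78.8 ± 7.74 (SD, n = 3 each). The log2 fold change was -1.82 ± 0.42 (SE), with an adjusted p of 0.0235 by edgeR's quasi-likelihood test. In bulk tissue, fewer cells that make an RNA and less of it per cell cannot be told apart.

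The spread of Hotairm1 was set against counting error within each group, and the difference between the groups was not tested. Over the AVE0991 libraries its variance was 5.61 times that given by counting error alone, and over the model libraries it was 0.856 times. These ratios rest on 3 libraries each, with 63 recovered counts in the AVE0991 group and 266 in the model group. The highest of the AVE0991 values was library a, which held 53.0% of the normalized counts of the group.

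The call for Hotairm1 did not hold in every fit with 1 library left out. It was kept without AVE0991 library a (log2 fold change -2.30, adjusted p = 0.0192, edgeR) and without model library c (-1.86, adjusted p = 0.0316, edgeR). Without AVE0991 library b the adjusted p was 0.0793, without AVE0991 library c it was 0.0636, without model library a 0.0782 and without model library b 0.0919, by the same edgeR test. In those 4 fits the log2 fold change ran from -1.86 to -1.58. The authors' deposited table gave Hotairm1 a test statistic of -7.27 with 3.55 degrees of freedom and an unadjusted p of 0.00297, with 10.6% of its 2247 names at an unadjusted p under 0.05 and lower with AVE0991. Adjusted over all names of the authors' deposited table by the Benjamini-Hochberg method, that p became 0.212, and 0% of its names passed.

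**Figure D1:**
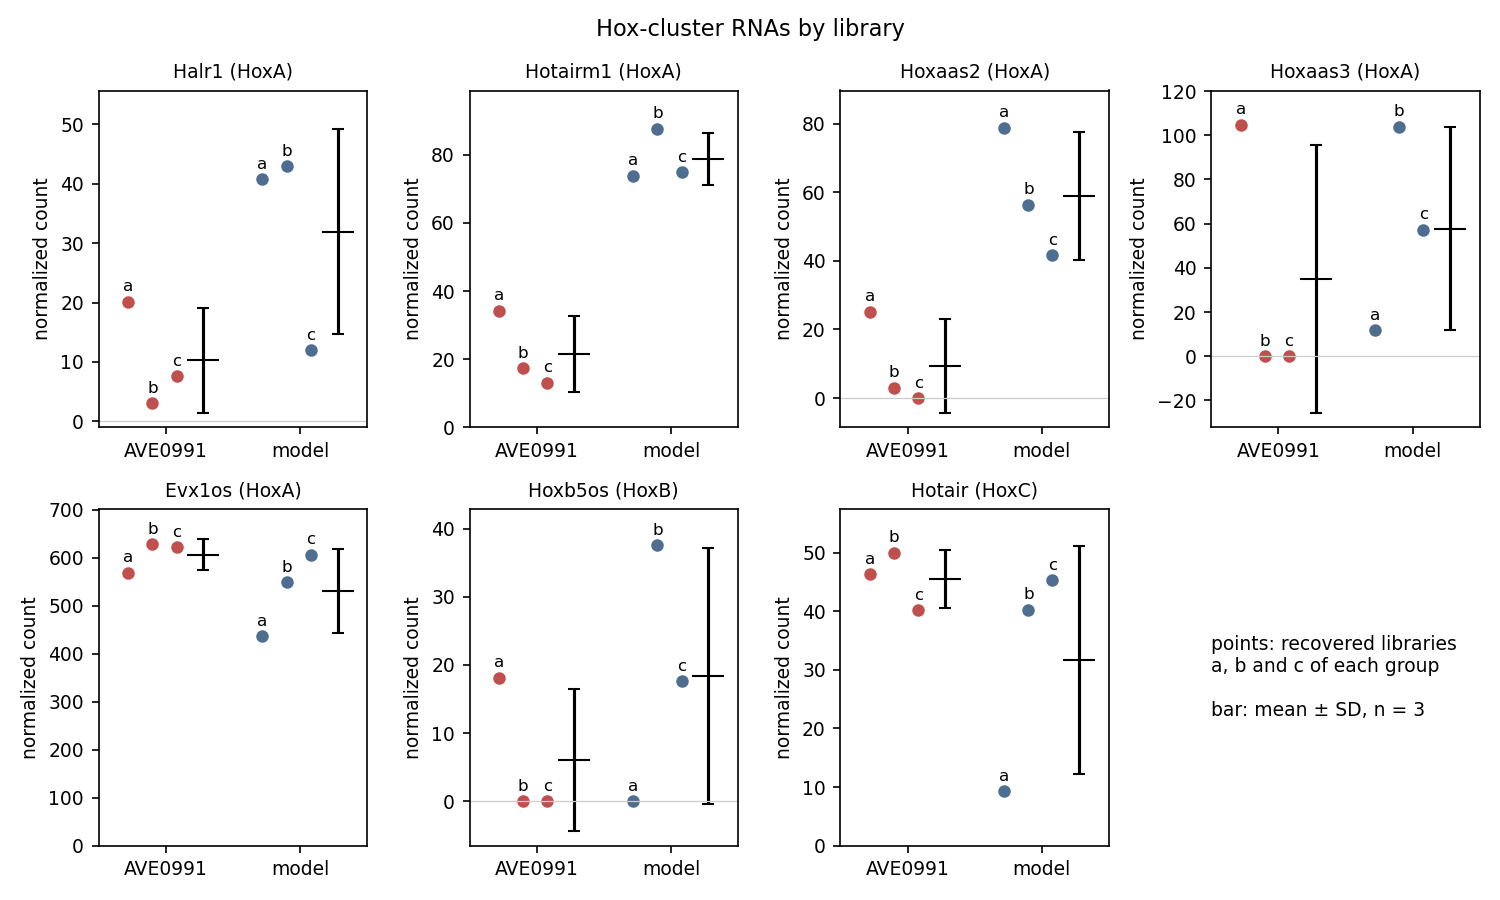
Normalized counts (y axis, 1 scale per panel) of the 7 Hox-cluster RNAs in the recovered libraries a, b and c with AVE0991 and in the model group; points are libraries and bars are the mean ± SD (n = 3). The groups do not overlap for Hotairm1 and Hoxaas2, against 22.5% of all names tested that did not overlap and were lower with AVE0991. AVE0991 library a is the highest of its group for Halr1, Hotairm1, Hoxaas2, Hoxaas3 and Hoxb5os, against 38.9% of all names tested.

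Halr1, also known as Haunt, has been studied in mouse embryonic stem cells as a regulator of the HoxA cluster. It had 20.2, 3.06 and 7.60 normalized counts in a, b and c of the AVE0991 group, against 40.7, 43.0 and 12.01 in a, b and c of the model group. Model library c lay within the range of the AVE0991 libraries, and the other model libraries lay above it. Halr1 had a log2 fold change of -1.58 ± 0.79 (SE), with an adjusted p of 0.220 by edgeR's quasi-likelihood test. It missed the threshold in all 14 alternatives, with log2 fold changes from -2.49 to -1.14.

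Hoxaas2, whose human counterpart HOXA-AS2 is known mainly from cancer cells, had the lowest of the 7 fold changes. Its normalized counts were 25.2, 3.06 and 0 in a, b and c of the AVE0991 group, against 78.9, 56.4 and 41.6 in a, b and c of the model group. The groups did not overlap, as for 22.5% of all names tested in this direction. A count of 0 in library c allows up to 3 counts, or 3.26 normalized counts. On the log2 scale Hoxaas2 differed by -2.59 ± 0.99 (SE), and its adjusted p of 0.112 by edgeR's quasi-likelihood test missed the threshold. The unadjusted edgeR p was 0.0285, and the authors' deposited table gave 0.0246. With DESeq2 in place of edgeR the adjusted p was 0.0496, where 9.61% of names passed and were lower.

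Of the 28 counts of Hoxaas2 with AVE0991, 25 lay in library a. Without that library Hoxaas2 passed the edgeR test (adjusted p = 0.0214), at 3 counts in the AVE0991 group, so the fitted log2 fold change of -5.08 has no firm size. Without any other library the adjusted p of Hoxaas2 ran from 0.115 to 0.292 (edgeR).

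Hoxaas3, which spans Hoxa5 and Hoxa6 and whose counterpart has been studied in the fate choice of mesenchymal stem cells, was present in some libraries and at 0 in others. It had 104.8, 0 and 0 normalized counts in a, b and c of the AVE0991 group, against 11.9, 103.8 and 57.3 in a, b and c of the model group. The highest value of all 6 libraries was an AVE0991 library and so were the 2 lowest. A count of 0 in AVE0991 libraries b and c allows up to 3.06 and 3.26 normalized counts. Over all libraries the log2 fold change was -0.68 ± 1.44 (SE), with an adjusted p of 0.795 by edgeR's quasi-likelihood test.

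All 104 counts of Hoxaas3 with AVE0991 lay in library a. For AVE0991 libraries b and c, with 0 counts, 3 counts over both libraries were taken as the limit. The model mean of 57.7 ± 46.0 normalized counts (SD, n = 3) was 36.5-fold that limit. These libraries were singled out for their 0 counts, so the difference follows from the choice. The limit covers counting error only, and the model libraries ran from 11.9 to 103.8. The fit without library a gave Hoxaas3 an adjusted p of 0.0388 (edgeR) and left 142 of 1924 names past the threshold in either direction, with 4.37% of names lower. Without model library b the log2 fold change of Hoxaas3 was 0.039, so its direction was not stable.

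Without AVE0991 library a, 3 of the 7 Hox-cluster RNAs, Hotairm1, Hoxaas2 and Hoxaas3, were lower at the threshold. In that fit 4.37% of all names were lower and past the threshold. Library a was the highest AVE0991 library for these 3 RNAs, so their lower AVE0991 means without it follow from leaving it out. In the fits without AVE0991 library b, AVE0991 library c, model library a and model library b none passed by edgeR, with 4.62%, 5.09%, 3.68% and 3.05% of all names lower and past the threshold; with all 6 libraries 2 of the 7 had an unadjusted edgeR p under 0.05, a share near the 30.9% of all names tested that did, and DESeq2 called 2. Without model library c, where 10.3% of names were lower and past the threshold, Hotairm1 alone passed.

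**Figure D2:**
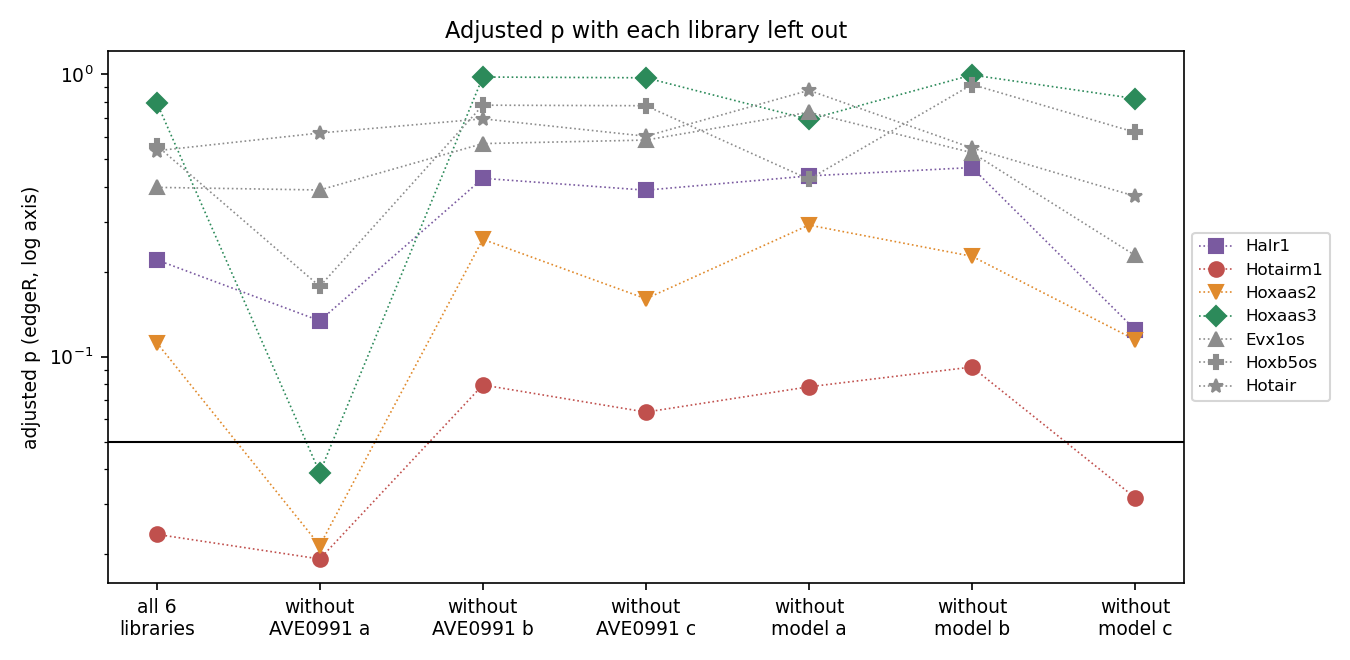
Adjusted p (y axis, log scale, edgeR's quasi-likelihood test) of the 7 Hox-cluster RNAs with all 6 libraries and with each library left out (x axis); the black line is the threshold of 0.05, and dotted lines only join the values of 1 RNA. Hotairm1 lies below the line with all libraries, without AVE0991 a and without model c, and Hoxaas2 and Hoxaas3 only without AVE0991 a.

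Evx1os, at the far end of the HoxA cluster, is transcribed beside the homeobox gene Evx1 and has been studied in mouse embryonic stem cells. It had 568, 628 and 622 normalized counts in a, b and c of the AVE0991 group, against 436, 549 and 606 in a, b and c of the model group. The groups overlapped, and AVE0991 library a was the lowest of its group. The log2 fold change was 0.25 ± 0.18 (SE), with an adjusted p of 0.398 by edgeR's quasi-likelihood test. Evx1os had 3537 recovered counts in all and the smallest SE of the 7 RNAs, and its log2 fold change ran from 0.12 to 0.35 over the 14 alternatives.

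Hoxb5os, across Hoxb5 and Hoxb6, was the RNA with the fewest counts, 79 in all. It had 18.1, 0 and 0 normalized counts in a, b and c of the AVE0991 group, against 0, 37.6 and 17.6 in a, b and c of the model group. Each group held at least 1 library with no count and at least 1 with over 15, and the variance was 17.2 times that of counting error over the AVE0991 libraries and 22.5 times over the model libraries. Its log2 fold change was -1.53 ± 1.58 (SE), with an adjusted p of 0.559 by edgeR's quasi-likelihood test. Without AVE0991 library a the adjusted p was 0.177 (edgeR).

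Hotair, known from human fibroblasts for an interaction with the Polycomb complex that silences genes, had 46.4, 49.99 and 40.2 normalized counts in a, b and c of the AVE0991 group, against 9.33, 40.3 and 45.3 in a, b and c of the model group. Model library a was the lowest, and the other model libraries lay within the range of the AVE0991 libraries. The log2 fold change was 0.58 ± 0.56 (SE), with an adjusted p of 0.536 by edgeR's quasi-likelihood test. Without model library a it was 0.14. The variance of Hotair over the AVE0991 libraries was 0.51 times that of counting error, against 14.0 times over the model libraries.

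**Figure D3:**
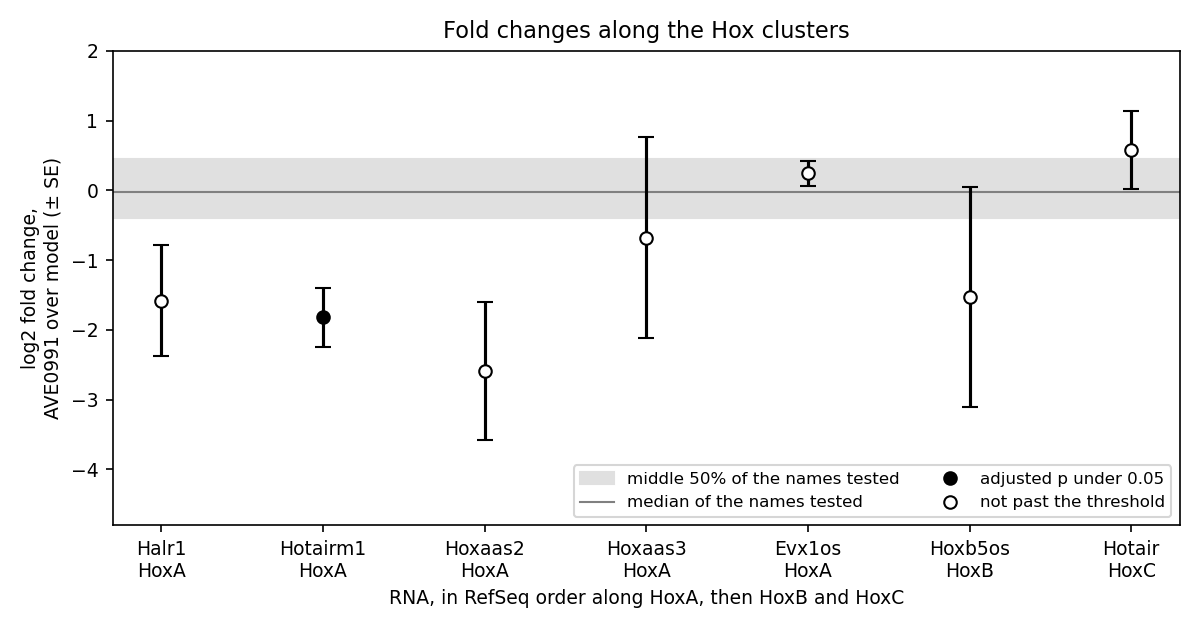
Log2 fold change of AVE0991 over model ± SE (y axis) of the 7 RNAs in RefSeq order along HoxA, then HoxB and HoxC; the grey band holds the middle 50% of the 1867 names tested and the grey line is their median. Halr1, Hotairm1 and Hoxaas2 have the log2 fold changes -1.58, -1.82 and -2.59, Hoxaas3 has -0.68 and Evx1os at the other end of HoxA has 0.25. Hoxb5os of HoxB has -1.53 and Hotair of HoxC has 0.58. Only Hotairm1, the filled point, passed the threshold.

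Along HoxA the first 3 RNAs from the Skap2 side, Halr1, Hotairm1 and Hoxaas2, had log2 fold changes from -2.59 to -1.58, and only Hotairm1 passed. The next HoxA RNA, Hoxaas3, had -0.68 ± 1.44 (SE), and Evx1os had 0.25 ± 0.18. Hoxb5os of HoxB, at -1.53 ± 1.58, lay near Halr1, so such values were not particular to that side of HoxA. Whether Hotairm1 moved differently from the other RNAs was asked with the log2 ratio of its count to theirs in each library (0.5 added to each count). The ratio to Evx1os was -4.03, -5.14 and -5.52 in a, b and c of the AVE0991 group, against -2.56, -2.64 and -3.01 in a, b and c of the model group. The ratio to Hotair was -0.43, -1.50 and -1.58 with AVE0991, against 2.93, 1.11 and 0.72 in the model group. Hotairm1 by itself did not overlap between the groups, as for 22.5% of all names tested in this direction. The share of all names with such a ratio was not computed. In the ratios to Evx1os and Hotair every AVE0991 library lay below every model library, with differences of -2.16 and -2.76. The exact permutation test (two-sided) gave p = 0.1 for each, the smallest that 3 against 3 libraries allow, and 0.3 after adjustment over 6 ratios, so this design cannot pass 0.05. Against Halr1, Hoxaas2, Hoxaas3 and Hoxb5os the ratios of the groups overlapped, with differences of -0.22, 2.01, 1.81 and -0.018 and exact permutation p of 0.5, 0.3, 0.4 and 1. Those for Hoxaas2 and Hoxaas3 rest on libraries with 0 counts and moved with the library left out, from 0.92 to 3.02 and from 0.61 to 3.98.

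The high values of AVE0991 library a recurred from RNA to RNA. That library was the highest of its group for 5 of the 7 RNAs, against 38.9% of all names tested, and it held 100% of the AVE0991 counts of Hoxaas3 and Hoxb5os, 89.2% of those of Hoxaas2 and 65.4% of those of Halr1. For Evx1os and Hotair, the RNAs beyond Hoxa13 and beside Hoxc11, it held 31.2% and 34.0%. The summed normalized counts of all 7 RNAs, most of them from Evx1os, were 817, 702 and 683 in a, b and c of the AVE0991 group, against 651, 918 and 855 in a, b and c of the model group. All 3 AVE0991 libraries lay within the range of the model libraries on this sum. Without Evx1os the sums were 248.9, 73.5 and 60.8 in a, b and c of the AVE0991 group. Those of the model group were 214.6, 368.7 and 248.6. On these sums AVE0991 libraries b and c lay below every model library, and AVE0991 library a lay within the model range. The total of 1820648 recovered counts of AVE0991 library a and its scaling factor in edgeR of 1.00 were close to those of the other AVE0991 libraries, whose factors were 1.02 and 1.00.

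In the model group, library a was the lowest for 5 of the 7 RNAs, against 32.3% of all names tested. Its values of 0 for Hoxb5os, 11.9 for Hoxaas3 and 9.33 for Hotair were each the lowest of the group, while its 78.9 for Hoxaas2 was the highest. The Hox-cluster RNAs thus did not rank the model libraries in 1 order.

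The variation between libraries, given by edgeR as a biological coefficient of variation within groups, was 0.182 for Evx1os, 0.337 for Hotairm1, 0.467 for Hotair, 0.611 for Halr1, 0.785 for Hoxaas2, 1.37 for Hoxaas3 and 1.45 for Hoxb5os. The median over all names tested was 0.244. Evx1os lay below that median and the other 6 RNAs above it.

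A clone-named lncRNA, Gm15050, also lies over Hoxa3 in RefSeq. It was picked by position after the names were seen. It had 20.2, 0 and 0 normalized counts in a, b and c of the AVE0991 group, against 17.8, 26.8 and 12.01 in a, b and c of the model group, and it shared with Hoxaas3 and Hoxb5os that only library a had counts with AVE0991. Its log2 fold change was -1.43 ± 1.25 (SE), with an adjusted p of 0.493 by edgeR's quasi-likelihood test. Of 19 Hox-cluster lncRNA names, synonyms included, the 7 described here were analysed. None of the 6 listed Hox-cluster miRNA loci and 50 Hox, flanking or partner protein-coding genes was among the names used here.

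Profiles over the 6 libraries were compared by the root mean square difference of log2(normalized count + 1), each RNA centred on its own mean. The 5 names closest to Hotairm1 among 1866 were 4930455G09Rik, Mirlet7b, 4930407I19Rik, Gm32496 and Gm5083, with differences of 0.270, 0.286, 0.317, 0.330 and 0.334, against a median of 1.06 over all names. Their log2 fold changes were -1.99, -1.84, -1.36, -1.73 and -1.51; since the names were picked for a profile like that of Hotairm1, being lower with AVE0991 follows from the choice. None is a Hox-cluster RNA. The closest of those was Halr1, in place 180 with a difference of 0.738, and Hoxaas3 was the farthest, in place 1814 with 2.14.

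**Figure D4:**
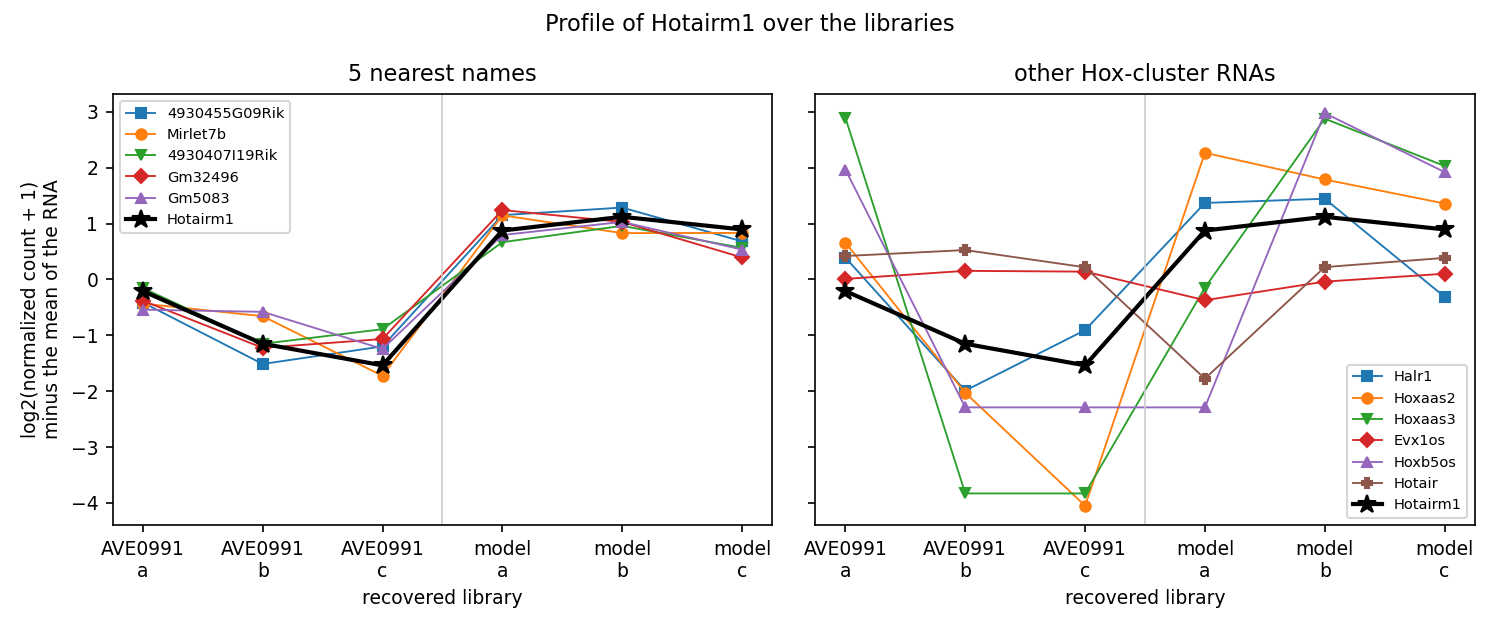
Log2(normalized count + 1) minus the mean of each RNA (y axis) in the 6 recovered libraries (x axis) for Hotairm1 (black stars) beside its 5 nearest names (left) and the other 6 Hox-cluster RNAs (right); lines only join the values of 1 RNA. The nearest names follow Hotairm1 within 0.334 (root mean square), while Hoxaas3 and Hoxb5os drop in AVE0991 libraries b and c and are high in AVE0991 library a. Hoxb5os is as low in model library a (-2.29), where Hoxaas3 is at -0.14.

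RNAs of loci that pattern the forebrain and midbrain also differed between the groups. Of 13 such names, 12 were tested; 5 rose (Dlx6os1, Emx2os, Sox1ot, Sfta3-ps and Zeb2os), 3 fell (Otx2os1, Paupar and Lhx1os) and 4 did not pass, against 7.61% of all names tested that were higher and 8.3% that were lower. The list was chosen with earlier results of these data known, so its counts cannot be read as an excess over all names. The median log2 fold change of the 12 was 0.72. None was at 0 in all libraries, and their summed normalized counts lay between 38155 and 39908 in the AVE0991 libraries and between 16121 and 22950 in the model libraries. Dlx6os1, from the locus of forebrain homeobox genes, had the largest AVE0991 mean of the 12, 17283 ± 2805 (SD, n = 3). Its model mean of 2705 ± 1417 (SD, n = 3) lay below those of Pantr1 (5697) and Rmst (3497). Lhx1os, which also fell, had 135, 152 and 142 normalized counts in a, b and c of the AVE0991 group, and Paupar had 92.7, 93.9 and 66.2. Library a was the highest of the AVE0991 group for 5 of the 12 RNAs, namely Emx2os, Sfta3-ps, Rmst, Pantr1 and Pantr2, against 38.9% of all names tested. Rmst, an RNA of the embryonic midbrain, differed by 0.02 ± 0.13 (SE) on the log2 scale, with an adjusted p of 0.942 (edgeR). The part of these differences in the result for Hotairm1 was not tested.

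For other cell types few markers could be tested. Of 16 names for microglia and myeloid cells only Mir155hg was tested; it had 30.2, 27.5 and 43.4 normalized counts in a, b and c of the AVE0991 group, against 81.4, 60.0 and 41.6 in a, b and c of the model group, with an adjusted p of 0.225 (edgeR). Of 9 names for astrocytes and oligodendrocytes, Mir219a-2, an oligodendrocyte miRNA locus, fell (log2 fold change -0.86 ± 0.19, adjusted p = 0.0193, edgeR), and Neat1 did not pass, with 19410, 7062 and 12427 normalized counts in a, b and c of the AVE0991 group, against 10513, 13567 and 10473 in a, b and c of the model group. Of 6 neuronal names, Miat rose (log2 fold change 0.96 ± 0.22, adjusted p = 0.0222, edgeR), and Meg3 lay above the level at which counts were recovered and was not tested. Of 4 vascular names, Mir126b had too few counts to be tested. The part of these RNAs in the Hox-cluster values was not tested.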

How the data were processed

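The members and gene lists were chosen with earlier results of these data known. The submitters' processing notes name DESeq2 1.10.1, STAR 2.7.7a and mm9, with no role for each; per the labels' protocols, FastQC 0.11.8 and fastp 0.19.5 checked and trimmed reads. The sources used here do not give the annotation, the counting program or the strand setting. The authors deposited whole-number counts per NONCODE identifier, used here for depth alone, since no file pairs identifiers with names; FPKM, TPM and the comparison by identifier were not used. Their deposited named table gives a mean signal per group (counts divided by library factors), a test statistic score with degrees of freedom, an unadjusted p-value, a fold ratio and its log2; per its values, the fold adds 1 to each mean.

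From each mean, statistic and degrees of freedom, whole counts per library were recovered: 2239 of 2247 names with a value (99.64%) had exactly 1 solution, 1 had several, 7 were above the level solved and 35 were 0 throughout. On simulated data 2233 of 2234 names had 1 solution, all equal to the simulated counts. The counts were tested with edgeR 4.0.16 (TMM, filterByExpr, quasi-likelihood, R 4.3.3) over 1867 names, adjusted by Benjamini-Hochberg; SE is the log2 fold change over the square root of F. In 1 simulation of this comparison (1868 names tested), 40.2% of 97 names changed 2-fold and 97.8% of 92 changed 4-fold were called, and 6.52% of calls were unchanged names. The simulation gave every name the same dispersion. The biological coefficients of variation of the Hox-cluster RNAs ran from 0.182 (Evx1os) to 1.45 (Hoxb5os), so these shares cannot be carried over to them. Intervals and limits of 3 counts for a count of 0 cover counting error only. Alternatives were other scalings and filters, robust fitting, DESeq2 1.42.0, limma-voom 3.58.1, the authors' test and each library left out. Names were chosen by membership, by the lists and, for Hotairm1, as the 5 nearest profiles. Of 2282 names 2270 matched a RefSeq symbol. No sequences are shown. One gene is not reported here.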

Additional observations from a re-analysis of the deposited data

How the results depend on the processing

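Over all names, scaling, filter, robust, DESeq2 and limma-voom alternatives gave 265 to 404 names past the threshold against 297, a 2-fold minimum gave 184, the authors' test 0 (423 at an unadjusted p under 0.05), and leaving out 1 library 93 to 420. Of the 7 Hox-cluster RNAs, 1 passed; DESeq2 called 2, the authors' test 0, and fits without 1 library 0 to 3. Hotairm1 passed in 9 of 14 alternatives (adjusted p from 0.00311 by DESeq2 to 0.212 by the authors' test) and kept its direction in all 14. Its groups did not overlap, so leaving out 1 library could hardly change the direction. With 1 library left out it passed only without AVE0991 library a and without model library c. Its log2 fold change was -1.82 by the authors' test, where it did not pass, and -2.30 to -1.58 with 1 library left out. Hoxaas3 changed sign without model library b (0.039), and its fitted values with 1 library left out ran from -8.90 to 0.039. Without AVE0991 library a the fitted log2 fold change of Hoxb5os was -7.25; its AVE0991 group then had no counts, as for Hoxaas3, and such values are no bounds. The cause of these moves was not tested, except that fits without a library hold fewer samples.

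The ratio of Hotairm1 to Halr1 differed between groups by -0.75 to 0.33 with 1 library left out, and changed sign without AVE0991 library a, without AVE0991 library c and without model library c. That to Hoxb5os ran from -1.20 to 1.92, and was 0.73 with 0.1 added to counts. With 0.1 or 1 added, the ratio to Hoxaas2 differed by 2.81 or 1.64 and that to Hoxaas3 by 3.32 or 1.20. The ratios to Evx1os and Hotair stayed below 0 in all alternatives run. No paired analysis was possible because the recovered libraries carry no replicate numbers. Hoxb5os had 79 counts in all, and its spread between libraries exceeded counting error in each group.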
